A study of Mus musculus with 24 samples.

Results

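The genes described here are the Wnt ligands, their receptors and secreted antagonists, the R-spondins with their receptors, and 3 intracellular genes of the same pathway, in a mouse model of endometriosis. They were taken from the deposited count table by symbol and biotype: protein-coding genes named Wnt, Fzd, Lrp5 or Lrp6, Sfrp, Dkk, Wif1, Rspo, Lgr4 to Lgr6, Axin1, Axin2 or Lef1. The rule used no measured value, but it was chosen with earlier results of these data known. It gave 50 of 56691 genes, namely 19 ligands, 12 receptors, 9 secreted antagonists, 7 R-spondins or R-spondin receptors and 3 intracellular genes. RNA was sequenced from sham-operated uterus, from the eutopic uterus that mice with endometriosis keep in place and from their ectopic lesions, at 1 month and at 3 months after surgery done at 8 weeks of age. Each of the 6 groups held 4 libraries, all taken on pregnancy day 3.5 from mice of mixed C57BL/6 and SV129 background. The labels give the genotype Rosa26mTmG/+ for sham and eutopic uterus and Pgrcre/+Rosa26mTmG/+ for lesions, while the series text gives Pgrcre/+Rosa26mTmG/+ for the mice with endometriosis. Rosa26mTmG is a fluorescent reporter that Cre recombinase switches, and Pgrcre places Cre under the progesterone receptor gene, so that cells that express or expressed this receptor are marked. By the labels, genotype and tissue cannot be told apart in any comparison with lesions. Mice at 1 month are labelled fertile, and at 3 months the sham mice are labelled fertile and the mice with endometriosis subfertile. The labels tie no library to an animal, so p-values measure the spread between these libraries.

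Wnt proteins are secreted, lipid-modified signals that bind Frizzled receptors (Fzd genes) together with the co-receptors Lrp5 and Lrp6. In the canonical branch this stabilises beta-catenin, which acts with TCF and LEF factors such as Lef1 and switches on genes including Axin2; other ligands act without beta-catenin on cell polarity and movement. Secreted antagonists catch the ligands (Sfrp proteins and Wif1) or block the co-receptors (Dkk1, Dkk2 and Dkk4), and R-spondins, through Lgr receptors, keep Frizzled receptors on the cell surface. In the uterus Wnt7a and Wnt7b are known from the epithelium, Wnt4 is needed in the stroma for decidualization, and Wnt5a and Wnt11 take part in gland formation.

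Levels are given as CPM (a gene's read counts scaled to a fixed library size) after scaling of the libraries, in the order of libraries 1 to 4, and changes as log2 fold changes ± standard error (SE) from edgeR. A gene was called when its p adjusted over all genes tested was under 0.05. Each fit used the same spread per gene for all its groups, although lesions at 3 months varied more between libraries than the other groups. Library totals ran from 45100000 to 59400000 counts. Several libraries carried transcripts of other tissues. At 3 months the 10 skeletal muscle markers together reached 52130, 16990 and 9203 CPM in lesion libraries 2 to 4, against 112 to 171 CPM in eutopic uterus. The 12 ovary and steroid markers together made 23900 CPM of lesion library 1 at 3 months, where the uterine genes Hoxa10 and Hoxa11 stood at 0.823 and 0.457 CPM, against 388 to 421 and 249 to 304 CPM in eutopic uterus. In lesion library 2 of that time Hoxa10 was at 13.3 CPM, and in libraries 3 and 4 at 231 and 109.9 CPM. At 1 month, liver and pancreas markers summed to 87310 CPM in lesion library 2 against 12.1 to 14.4 CPM in eutopic uterus. For 10 epithelial markers the sums at 3 months were 149 CPM (lesion library 1), 54 CPM (lesion library 2) and 1049 to 1295 CPM (eutopic uterus). Immune markers were also higher in every lesion library except library 1 at 3 months. The sums of 9 macrophage markers at 1 month were 696 to 1578 CPM (lesions) and 256 to 345 CPM (eutopic), and those at 3 months 180.3 to 2714 and 217 to 322 CPM. For 8 B and plasma cell markers the sums were 1303 to 10110 against 356 to 666 CPM and 83.3 to 4452 against 502 to 1276 CPM. The 8 smooth muscle markers were lower at 3 months, at 2288 to 7249 against 7394 to 14830 CPM, and at 1 month summed to 6690.0 to 9842 against 8397 to 13400 CPM. The part of these cell types in the changes of Wnt genes was not tested. Where leaving out lesion library 2 at 1 month, or lesion libraries 1 and 2 at 3 months, moved a result, the value without them is given too. In bulk tissue, fewer cells of a type and less RNA per cell cannot be told apart.

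Lesions were set against eutopic uterus to show how the pathway differs in tissue growing outside the uterus. At 1 month the ligands Wnt4, Wnt2 and Wnt7b and the antagonist Sfrp1 were raised, by 8.42-fold, 9.71-fold, 9.72-fold and 6.9-fold, and Fzd2 was the 1 gene of the family called lower. A further 10 had fold changes below 0 that did not pass. At 3 months Wnt4, Wnt2 and Sfrp1 were again called higher, as was Wnt7b, on lesion libraries 3 and 4, and Fzd2, Fzd6, Lef1, Wnt5a, Wnt8b, Wnt11 and Wnt16 were lower. At 1 month 9 of the 43 family members with enough counts for the test were called (20.9%), 8 higher and 1 lower, where 20.7% of all genes tested were called, 12% higher and 8.76% lower. At 3 months 22 were called (51.2%), 15 higher and 7 lower, against 40.5% of all genes, 23.4% higher and 17.1% lower. The share called at 1 month was thus near that of all genes. Libraries of lesions and eutopic uterus did not overlap for 21 members at 1 month and for 14 at 3 months (31.7% and 24.1% of all genes). The median log2 fold change over the members was 0.29 at 1 month and 0.52 at 3 months, beside -0.01 and 0.04 over all genes.

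The 1-month count rested on each of several libraries: 4 were called without lesion library 2, without lesion library 4, without eutopic library 2 or without eutopic library 4, and 5 without eutopic library 3. Wnt2, Wnt4, Sfrp1 and Fzd2 were the 4 called in every one of the 15 other analyses of that comparison. These 15 hold the fit without lesion library 2 in duplicate. With only the eutopic and lesion libraries of 1 month in the fit no call was lost. Dkk2, Fzd10, Lgr5, Lrp5, Sfrp4, Wnt2b, Wnt5b, Wnt7a, Fzd6, Lef1, Lgr4 and Rspo3 were then called as well. At 3 months Wnt4, Wnt11, Sfrp1, Fzd2, Fzd6 and Lef1 were called in all 15, while the total was 9 when only the eutopic and lesion libraries of that time entered the fit. Axin1, Dkk3, Fzd4, Fzd7, Lrp6, Sfrp4, Sfrp5, Wnt10b, Wnt2b, Wnt7b, Wnt16, Wnt5a and Wnt8b lost their calls there. With the replicate block added Fzd9 and Wnt2 lost theirs too. In fits of this kind more genes were thus called at 1 month than at 3 months.

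**Figure D1:**
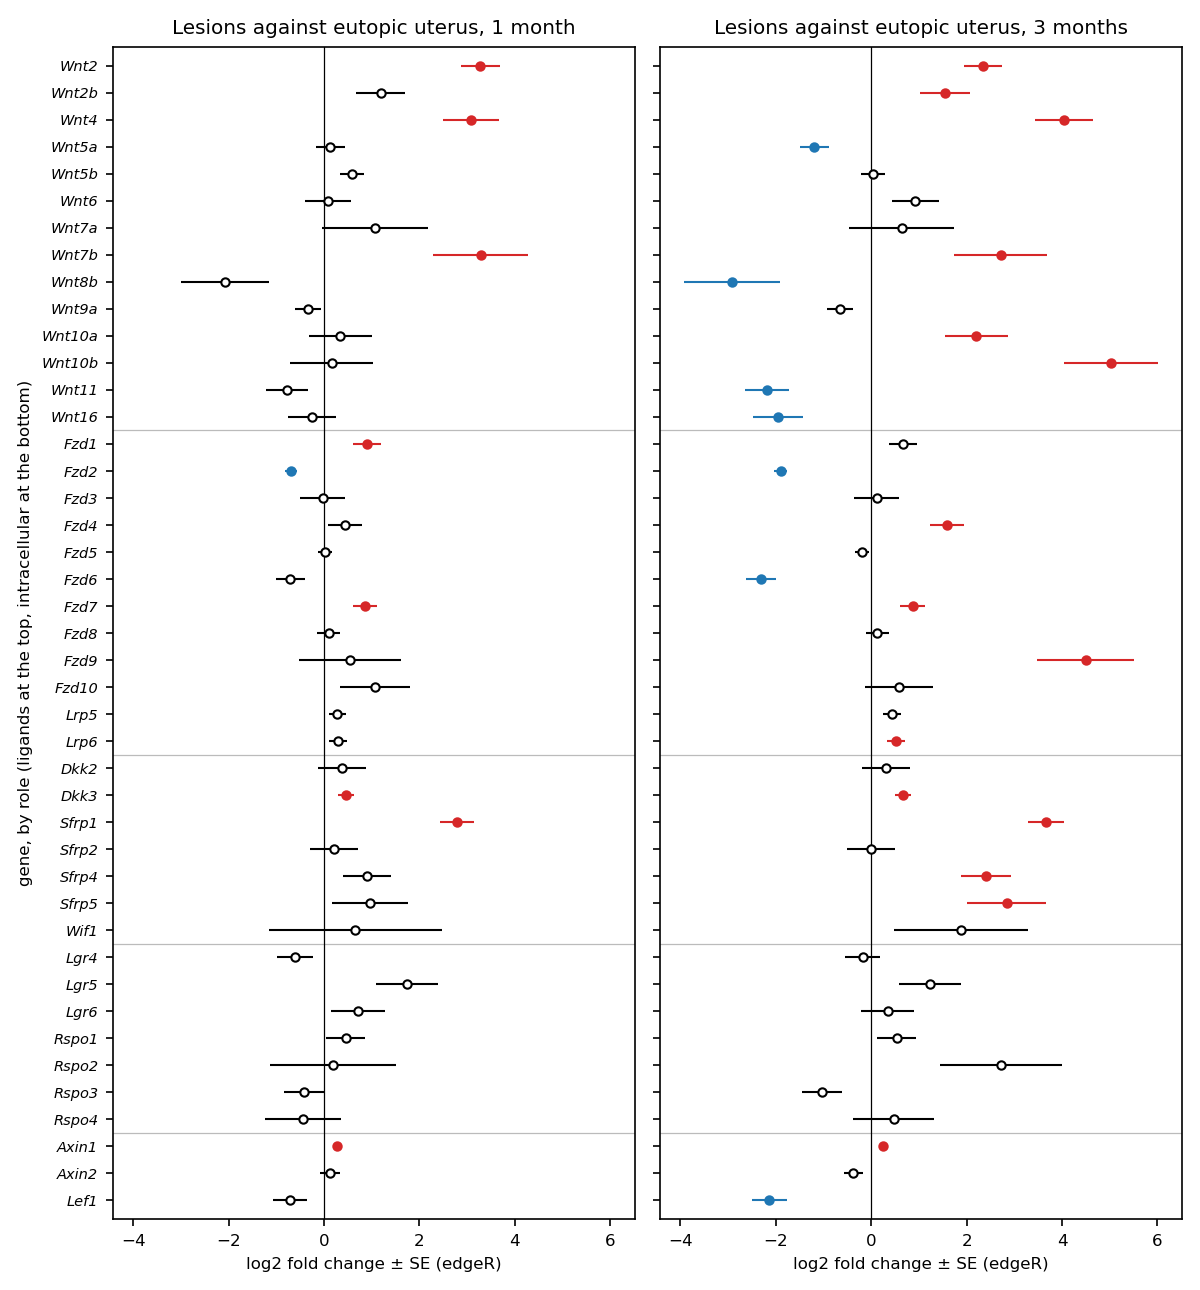
Log2 fold change ± SE (edgeR, x axis) of the 43 tested genes, by role from ligands at the top to intracellular genes at the bottom, in lesions against eutopic uterus at 1 month (left) and 3 months (right). Filled red points were called higher (8 and 15 genes), filled blue points lower (1 and 7), and open points were not called.

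**Figure D2:**
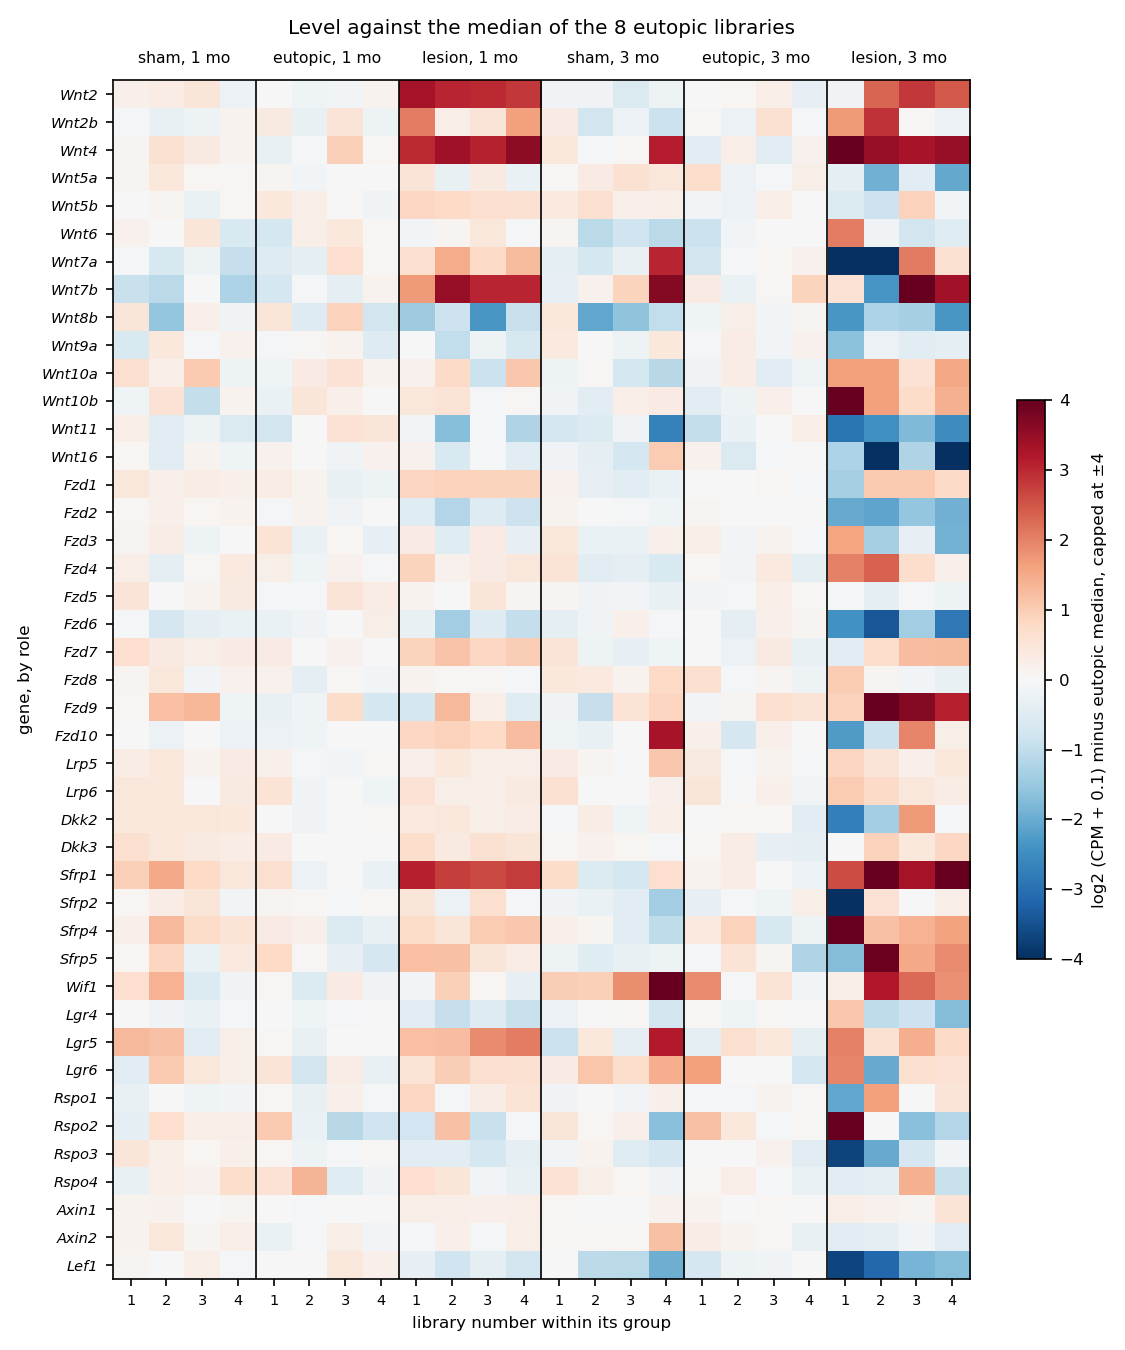
Level of the 43 tested genes in all 24 libraries, as log2 of CPM + 0.1 minus the median of the 8 eutopic libraries, capped at ±4. Wnt4 and Sfrp1 are red in all 8 lesion libraries, Fzd2 is blue in all 8, and lesion libraries 1 and 2 at 3 months and sham library 4 at 3 months differ from the libraries beside them.

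Among ligands, Wnt4 (ENSMUSG00000036856.5) was raised in every lesion library. It stood at 3.49, 4.15, 8.42 and 4.54 CPM in eutopic uterus and at 35.3, 46.3, 37 and 53.5 CPM in lesions at 1 month. At 3 months eutopic libraries were at 3.12, 5.26, 3.24 and 4.87 CPM and lesions at 126, 49.7, 43.8 and 49.1 CPM. The lowest lesion library lay above the highest eutopic one at each time, and lesion library 1 at 3 months, the one with ovary markers, was the highest of all. Wnt4 rose by 3.07 ± 0.59 on the log2 scale at 1 month (8.42-fold, adjusted p = 0.00219) and by 4.05 ± 0.61 at 3 months (16.5-fold, adjusted p = 6.13e-05). Without lesion libraries 1 and 2 the 3-month value was 3.47 ± 0.62 (adjusted p = 0.00019). Sham uterus was at 4.69, 6.71, 5.54 and 4.76 CPM at 1 month and at 5.89, 4.16, 4.47 and 38.7 CPM at 3 months, where library 4 alone lay within the range of the 1-month lesions.

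Wnt2 (ENSMUSG00000010797.7), a canonical ligand known from lung and placental development, had low levels in uterus. It was at 0.688, 0.612, 0.632 and 0.773 CPM in eutopic uterus and at 7.85, 6.48, 6.28 and 5.54 CPM in lesions at 1 month, and at 0.709, 0.743, 0.868 and 0.535 CPM in eutopic uterus and 0.622, 3.91, 5.6 and 4.31 CPM in lesions at 3 months. All lesion libraries were higher at 1 month, and at 3 months libraries 2, 3 and 4 were higher while library 1 lay within the eutopic range. Wnt2 rose by 3.28 ± 0.41 (9.71-fold, adjusted p = 9.26e-05) and by 2.35 ± 0.40 (5.09-fold, adjusted p = 0.00016), or by 2.77 ± 0.23 at 3 months without lesion libraries 1 and 2. Sham libraries, at 0.818, 0.889, 1.02 and 0.578 CPM at 1 month and 0.631, 0.626, 0.431 and 0.591 CPM at 3 months, were all below the lesion libraries other than library 1 at 3 months.

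The stretches just before the transcription start of Wnt4 and Wnt2, the ligands that rose most steadily, and of Wnt11, a ligand that fell and whose stretch holds a TCF/LEF-type motif, are given here for reference. They run 5′ to 3′ over the 250 bases before the start in the RefSeq promoter table of build GRCm38.p6, whereas the submitters' notes name mm39 for the counts. Wnt4 is at chr4:137277385-137277634 (plus strand), Wnt2 at chr6:18030446-18030695 (minus strand) and Wnt11 at chr7:98834862-98835111 (plus strand). Capitals mark a match to the motif, searched as CTTTGAT or CTTTGAA on both strands.
Wnt4: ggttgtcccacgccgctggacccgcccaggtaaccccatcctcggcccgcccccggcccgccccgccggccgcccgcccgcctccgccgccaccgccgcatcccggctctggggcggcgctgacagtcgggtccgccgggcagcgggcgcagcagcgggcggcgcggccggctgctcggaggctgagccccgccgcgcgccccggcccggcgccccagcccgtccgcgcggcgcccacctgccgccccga
Wnt2: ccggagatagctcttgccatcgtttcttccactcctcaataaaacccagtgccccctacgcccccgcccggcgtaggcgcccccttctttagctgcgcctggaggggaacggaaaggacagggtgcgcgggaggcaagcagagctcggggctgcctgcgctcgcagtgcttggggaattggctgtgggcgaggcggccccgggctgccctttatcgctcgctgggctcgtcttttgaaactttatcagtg
Wnt11: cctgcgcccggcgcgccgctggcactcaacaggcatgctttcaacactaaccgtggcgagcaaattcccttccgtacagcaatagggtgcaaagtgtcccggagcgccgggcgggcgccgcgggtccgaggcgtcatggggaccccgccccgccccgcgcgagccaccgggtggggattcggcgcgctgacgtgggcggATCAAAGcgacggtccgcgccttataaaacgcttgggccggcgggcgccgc
The Wnt11 match starts 51 bases before the start, and the Wnt4 and Wnt2 windows hold none of these letters. G and C make up 85.2% of the Wnt4 window, 63.6% of the Wnt2 window and 70.8% of the Wnt11 window. RefSeq windows were matched for 32 of the 50 genes (38 windows), with a median G and C content of 66.6% beside 52.4% over all 32851 windows. A match was found in 3 of the 38 (7.89%; Wnt5b, Wnt11 and Dkk1) and in 7.48% of all windows of that length, so that the genes held the motif about as often as other genes.

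**Figure D3:**
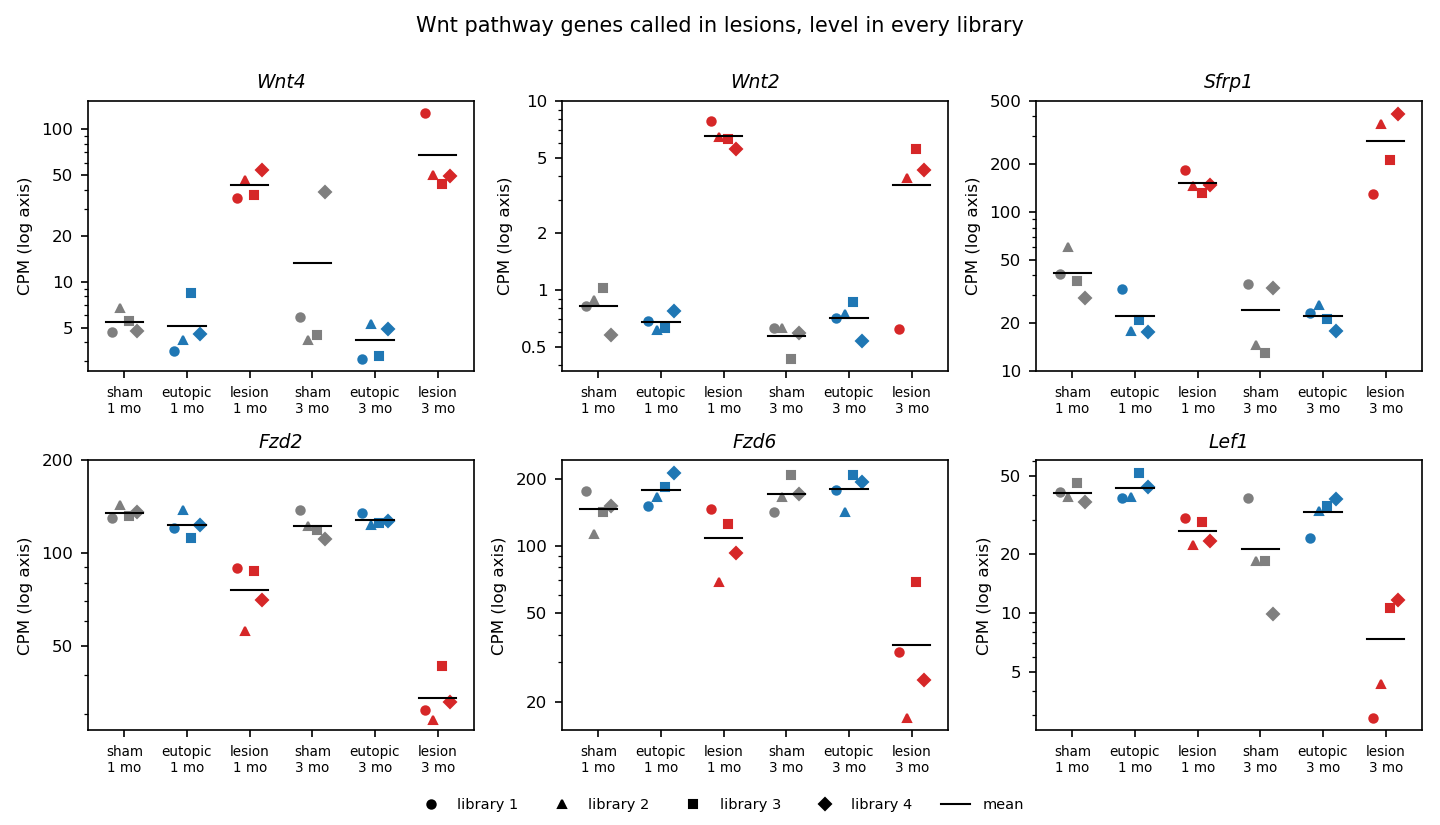
Level (CPM, log axis) of 6 called genes in each library, by group and time; marker shapes give the library number and lines the group mean. Wnt4 and Sfrp1 lie higher in all 8 lesion libraries than in any eutopic library, Fzd2 lies lower in all 8, and Fzd6 and Lef1 have their lowest means in lesions at 3 months.

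The epithelial ligands Wnt7b and Wnt7a differed more between lesions. Wnt7b was at 0.847, 1.39, 1.1 and 1.63 CPM in eutopic uterus and at 4.95, 17.5, 12.8 and 12.7 CPM in lesions at 1 month, and at 1.86, 1.2, 1.52 and 2.8 CPM in eutopic uterus and 2.25, 0.206, 29.9 and 15.8 CPM in lesions at 3 months. Every lesion library was higher at 1 month; at 3 months libraries 3 and 4 were higher, library 1 lay within the eutopic range and library 2 below it. It rose by 3.28 ± 1.00 at 1 month (adjusted p = 0.0253), a call lost without lesion library 2 (3.03 ± 1.04, adjusted p = 0.0612), and by 2.71 ± 0.97 at 3 months (adjusted p = 0.0306), or 3.60 ± 0.77 without lesion libraries 1 and 2. The 3-month call was lost in 7 of 15 other analyses, namely without lesion library 3 or 4, without eutopic library 1, 2 or 3, and with the 2 compared groups alone in the fit, with or without the replicate block; the values with 1 library left out went down to 1.74. Wnt7a, which keeps the luminal epithelium in order and is needed for glands, was at 7.83, 8.6, 18 and 11.6 CPM in eutopic uterus and 17.5, 31.8, 19.1 and 27.1 CPM in lesions at 1 month, and at 6.76, 10.9, 11.8 and 12.7 CPM in eutopic uterus and 0.165, 0, 47.9 and 17.4 CPM in lesions at 3 months. Lesions at 3 months thus held the lowest and the highest Wnt7a levels of the comparison, and the log2 differences of 1.06 ± 1.11 and 0.64 ± 1.10 did not pass the test. The lesion libraries lacking Wnt7a at 3 months, 1 and 2, were those with the low sums of epithelial markers; the part of epithelial content in these differences was not tested. In sham uterus Wnt7a was at 10.7, 7.19, 9.85 and 5.9 CPM at 1 month and 8.52, 6.8, 9.2 and 94.5 CPM at 3 months. Sham levels of Wnt7b were 0.734, 0.64, 1.44 and 0.561 CPM at 1 month and 1.14, 1.64, 2.76 and 19.8 CPM at 3 months, again with library 4 far above the others.

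Wnt10b, a canonical ligand known to favour bone over fat formation, was called at 3 months, largely on lesion library 1. It was at 0.46, 0.557, 0.753 and 0.641 CPM in eutopic uterus and 72.1, 2.22, 1.15 and 1.93 CPM in lesions, after 0.529, 0.952, 0.766 and 0.655 CPM in eutopic uterus and 0.932, 1, 0.608 and 0.679 CPM in lesions at 1 month. All 4 lesion libraries were above eutopic uterus at 3 months, but library 1 stood far above the rest. Its log2 rise of 5.03 ± 0.99 (adjusted p = 0.00056) was 1.32 ± 0.38 without lesion libraries 1 and 2 (adjusted p = 0.00951), and DESeq2 did not call it. Sham levels of Wnt10b were 0.568, 1.01, 0.287 and 0.731 CPM at 1 month and 0.578, 0.444, 0.797 and 0.834 CPM at 3 months. The related ligand Wnt10a was under 1 CPM everywhere: 0.0958, 0.165, 0.0579 and 0.0891 CPM in eutopic uterus and 0.567, 0.572, 0.218 and 0.523 CPM in lesions at 3 months, where groups did not overlap and it rose by 2.20 ± 0.67 (adjusted p = 0.0124). That call was lost without lesion libraries 1 and 2 (1.82 ± 0.78, adjusted p = 0.0696). At 1 month Wnt10a was at 0.0882, 0.17, 0.216 and 0.134 CPM in eutopic uterus and 0.143, 0.263, 0.0184 and 0.348 CPM in lesions, with overlapping groups, and sham levels were 0.234, 0.16, 0.341 and 0.0849 CPM at 1 month and 0.0876, 0.121, 0.0319 and 0 CPM at 3 months.

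Wnt2b, a canonical ligand close to Wnt2, was called at 3 months on lesion libraries 1 and 2. It was at 6.26, 5.18, 9.24 and 5.9 CPM in eutopic uterus and 19.97, 45.3, 6.33 and 5.11 CPM in lesions at 3 months, after 7.76, 4.98, 8.8 and 5.26 CPM in eutopic uterus and 25.3, 7.29, 8.68 and 19.3 CPM in lesions at 1 month. Only lesion libraries 1 and 2 stood above eutopic uterus at 3 months. Its rise of 1.55 ± 0.52 (adjusted p = 0.0229) turned to -0.24 ± 0.42 without them (adjusted p = 0.682). The sham values of Wnt2b were 5.89, 4.95, 5.29 and 6.66 CPM at 1 month and 7.64, 3.63, 5.18 and 3.3 CPM at 3 months.

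The ligands Wnt11, Wnt5a, Wnt16 and Wnt8b fell in lesions at 3 months. Wnt11 (ENSMUSG00000015957.13), a ligand mostly tied to signalling without beta-catenin, was at 13.4, 21.7, 26.5 and 31.7 CPM in eutopic uterus and 3.42, 4.69, 7.69 and 4.48 CPM in lesions, without overlap, and fell by 2.19 ± 0.46 (adjusted p = 0.000935). At 1 month it was at 15.8, 26.1, 39.5 and 36.8 CPM in eutopic uterus and 24.3, 8.08, 24.9 and 11.4 CPM in lesions, and the groups overlapped (-0.78 ± 0.44, adjusted p = 0.215). Sham uterus held 31.6, 19.5, 23 and 17.5 CPM at 1 month and 16.4, 18.1, 23.7 and 3.98 CPM at 3 months, so that sham library 4 was as low as the lesions.

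Wnt5a, the ligand best known for polarity signalling, was at 376, 194, 224 and 273 CPM in eutopic uterus and 178, 60.3, 168 and 55.1 CPM in lesions at 3 months. The 4 lesion libraries were below the eutopic ones, libraries 2 and 4 the furthest. Wnt5a fell by 1.19 ± 0.31 (adjusted p = 0.00464) and kept that call without lesion libraries 1 and 2 (-1.27 ± 0.34). The call was lost with the compared groups alone in the fit, with or without the replicate block. At 1 month levels of 249, 214, 227 and 232 CPM in eutopic uterus and 327, 186, 295 and 192 CPM in lesions overlapped, and the log2 difference was 0.13 ± 0.31. Sham values of Wnt5a were 247, 306, 240.5 and 238 CPM at 1 month and 238, 290.5, 351 and 316 CPM at 3 months.

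Wnt16, known from bone and haematopoietic development, was at 14.1, 8.31, 12 and 12.8 CPM in eutopic uterus and 5.25, 0.617, 5.42 and 0.67 CPM in lesions at 3 months. Lesion libraries 2 and 4 were under 1 CPM, and all 4 lay below eutopic uterus. It fell by 1.96 ± 0.53 (adjusted p = 0.00589), while at 1 month eutopic uterus, at 14.2, 12.3, 11.3 and 14.1 CPM, and lesions, at 14.1, 8.11, 11.9 and 9.2 CPM, overlapped (-0.25 ± 0.51). In sham uterus it was at 13.2, 9.05, 13.8 and 11.2 CPM at 1 month and 11.3, 9.55, 7.62 and 25.2 CPM at 3 months, highest in library 4.

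Wnt8b, a ligand of forebrain development, was barely detected: 0.345, 0.495, 0.367 and 0.446 CPM in eutopic uterus and 0, 0.114, 0.0989 and 0 CPM in lesions at 3 months. It fell by 2.92 ± 1.01 (adjusted p = 0.0251), a call lost without lesion libraries 1 and 2 (adjusted p = 0.0649). At 1 month Wnt8b was at 0.6, 0.255, 0.849 and 0.202 CPM in eutopic uterus and 0.0896, 0.184, 0 and 0.174 CPM in lesions, which did not overlap and did not pass (-2.08 ± 0.92, adjusted p = 0.109). Sham libraries were at 0.601, 0.0712, 0.484 and 0.357 CPM at 1 month and 0.596, 0.0202, 0.0638 and 0.156 CPM at 3 months, and 3 of the latter lay below every eutopic library of that time.

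The other ligands did not pass in lesions against eutopic uterus. Wnt6, a ligand known from the decidualizing stroma, was at 2.08, 4.13, 4.68 and 3.58 CPM in eutopic uterus and 3.21, 3.77, 4.81 and 3.4 CPM in lesions at 1 month, and at 1.88, 3.2, 3.49 and 3.48 CPM in eutopic uterus and 14.7, 3.15, 2.08 and 2.45 CPM in lesions at 3 months. Only lesion library 1 at 3 months stood out, and the differences were 0.08 ± 0.48 and 0.92 ± 0.49. Sham values of Wnt6 were 3.94, 3.49, 4.97 and 2.26 CPM at 1 month and 3.75, 1.61, 1.96 and 1.6 CPM at 3 months. Wnt5b, close to Wnt5a, was above eutopic uterus in every lesion at 1 month (12.8 to 15.2 against 7.63 to 11.3 CPM, adjusted p = 0.109) and overlapped it at 3 months. Wnt9a was below eutopic uterus in every lesion at 3 months (4.79 to 12.8 against 14 to 18.5 CPM, adjusted p = 0.0624). Wnt1, Wnt3, Wnt3a, Wnt8a and Wnt9b had too few counts for the test. Wnt3a had 3 counts and Wnt1 had 9 over all 24 libraries. Wnt3 (75 counts) was at 0.0915 to 0.335 CPM in lesions and 0 to 0.0619 CPM in eutopic uterus at 3 months, and Wnt9b reached at most 0.452 CPM, in sham library 4 at 3 months.

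Among receptors Fzd2 (ENSMUSG00000050288.7), a Frizzled that can serve either branch of the pathway, gave the most uniform change. It was at 121, 138, 112 and 123 CPM in eutopic uterus and 89.7, 55.7, 87.3 and 70.5 CPM in lesions at 1 month, and at 135, 123, 126 and 127 CPM in eutopic uterus and 30.8, 28.7, 42.9 and 32.9 CPM in lesions at 3 months. All lesion libraries lay below all eutopic ones at each time, and lesions at 3 months lay below those at 1 month. It fell by 0.69 ± 0.13 at 1 month (adjusted p = 0.00176) and by 1.90 ± 0.13 at 3 months (adjusted p = 3.92e-08), or -1.77 ± 0.17 without lesion libraries 1 and 2. Sham uterus, at 129.8, 143, 132 and 136 CPM and 138, 122, 119 and 111 CPM at the respective times, lay above every lesion.

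Fzd6 (ENSMUSG00000022297.16), a receptor of planar polarity, also fell. It was at 178, 141, 208 and 194 CPM in eutopic uterus and 33.4, 16.9, 68.6 and 25 CPM in lesions at 3 months, without overlap (-2.31 ± 0.31, adjusted p = 2.3e-05). At 1 month it was at 150.2, 165, 184 and 213 CPM in eutopic uterus and 146, 68.6, 126 and 93.1 CPM in lesions, again with every lesion lower, but the difference of -0.71 ± 0.30 did not pass (adjusted p = 0.0955); it was called by limma voom and when eutopic and lesion libraries alone were fitted, with or without the replicate block. In sham uterus Fzd6 was at 176, 112, 142 and 152 CPM at 1 month and 142, 165, 208 and 169.9 CPM at 3 months.

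Fzd9, a receptor studied in brain, bone and muscle, was called at 3 months. It was under 1 CPM in uterus, at 0.0766, 0.103, 0.193 and 0.178 CPM in eutopic libraries, and at 0.256, 8.39, 2.31 and 1.55 CPM in lesions. Libraries 2, 3 and 4, those with skeletal muscle transcripts, carried the rise, and library 1 was just above eutopic uterus. Fzd9 rose by 4.49 ± 1.02 (adjusted p = 0.0017), and by 3.76 ± 0.88 without lesion libraries 1 and 2; the part of muscle in it was not tested. At 1 month it was at 0.0529, 0.068, 0.216 and 0.0168 CPM in eutopic uterus and 0.0179, 0.369, 0.129 and 0.0348 CPM in lesions, and sham values were 0.1, 0.338, 0.377 and 0.068 CPM at 1 month and 0.0701, 0, 0.175 and 0.243 CPM at 3 months.

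Fzd4, a receptor known from blood vessel growth, was at 42.6, 37.7, 52.8 and 31.4 CPM in eutopic uterus and 164, 209, 66 and 46.9 CPM in lesions at 3 months. Lesion libraries 1 and 2 were the high ones, and its rise of 1.58 ± 0.36 (adjusted p = 0.00169) was 0.44 ± 0.28 and not called without them. At 1 month Fzd4 was at 48.2, 35.8, 46 and 38.7 CPM in eutopic uterus and 74.7, 46.2, 50.8 and 55.7 CPM in lesions, and in sham at 49.3, 31, 41.7 and 53.8 CPM and, at 3 months, 59.5, 29.6, 31 and 26.9 CPM.

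Fzd7, a receptor of the canonical branch, was at 72.3, 56.4, 64.2 and 58.6 CPM in eutopic uterus and 107, 127, 102 and 114 CPM in lesions at 1 month, and at 56.5, 49.1, 73.2 and 47 CPM in eutopic uterus and 42.5, 93.5, 135 and 137 CPM in lesions at 3 months. Every lesion was higher at 1 month, and every lesion except library 1 at 3 months. It rose by 0.85 ± 0.25 (adjusted p = 0.0231; 0.068 without lesion library 2) and by 0.87 ± 0.25 (adjusted p = 0.0102). Sham values of Fzd7 were 91.6, 74.2, 67.2 and 72.7 CPM at 1 month and 81.6, 50.02, 45.4 and 51 CPM at 3 months.

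Fzd1, its close relative, followed a like pattern, at 116, 104, 76.3 and 82.2 CPM in eutopic uterus and 170.4, 179, 174 and 174 CPM in lesions at 1 month, and at 93.2, 95.5, 98.6 and 88.8 CPM in eutopic uterus and 37.4, 197, 195 and 159.6 CPM in lesions at 3 months. It rose by 0.90 ± 0.30 at 1 month (adjusted p = 0.0374, or 0.0795 without lesion library 2). The 1-month call of Fzd1 was also lost without lesion library 1, 3 or 4, without eutopic library 2, 3 or 4 and with no filter. At 3 months its difference of 0.66 ± 0.29 did not pass with all 4 lesion libraries, of which library 1 was the lowest. It was called without lesion libraries 1 and 2 (0.89 ± 0.15), without library 1 alone and by limma voom. Sham values of Fzd1 were 130.5, 109, 116 and 109 CPM at 1 month and 106, 74.8, 69.4 and 77.9 CPM at 3 months.

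The co-receptor Lrp6 was at 169, 124, 140.5 and 112 CPM in eutopic uterus and 249, 209, 166 and 149.5 CPM in lesions at 3 months, and at 177, 110.1, 119.6 and 109 CPM in eutopic uterus and 180.5, 143, 147 and 156 CPM in lesions at 1 month. The groups overlapped at each time. It rose by 0.52 ± 0.19 at 3 months (adjusted p = 0.0318), a call lost without lesion libraries 1 and 2 (0.19 ± 0.20). Sham values of Lrp6 were 165, 168, 124 and 157 CPM at 1 month and 188, 121, 123 and 139 CPM at 3 months. Its partner Lrp5 differed by 0.28 ± 0.18 and 0.43 ± 0.18 and was not called. Fzd3, Fzd5, Fzd8 and Fzd10 were not called at either time either. Within lesions at 3 months Fzd10 was highest in library 3 (21.8 CPM) and lowest in library 1 (1.08 CPM).

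Of the antagonists Sfrp1 (ENSMUSG00000031548.8), a secreted Frizzled-related protein that binds Wnt ligands, rose the most steadily. It was at 32.7, 17.8, 20.9 and 17.6 CPM in eutopic uterus and 185, 145, 132 and 147 CPM in lesions at 1 month, and at 23, 26.2, 21.4 and 17.9 CPM in eutopic uterus and 130.2, 357, 213 and 416 CPM in lesions at 3 months. Each lesion library lay well above every eutopic one. The rise was 2.79 ± 0.37 at 1 month (6.9-fold, adjusted p = 0.00017) and 3.67 ± 0.38 at 3 months (12.7-fold, adjusted p = 1.98e-06), and 3.81 ± 0.37 at 3 months without lesion libraries 1 and 2. Sham uterus was at 40.9, 60.3, 36.7 and 28.7 CPM at 1 month and 35.1, 14.6, 13 and 33.5 CPM at 3 months, below every lesion.

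Sfrp4, known from endometrial stroma and from the ovary, was at 106, 153, 52.1 and 69.99 CPM in eutopic uterus and 1354, 181, 209.6 and 246 CPM in lesions at 3 months. All lesions were higher, and library 1, with its ovary markers, was far above the rest. The rise of 2.41 ± 0.53 (adjusted p = 0.00133) was 1.23 ± 0.37 without lesion libraries 1 and 2 (adjusted p = 0.012). At 1 month Sfrp4 was at 100.7, 92.8, 53.6 and 65.5 CPM in eutopic uterus and 134, 112, 161 and 170.2 CPM in lesions (0.90 ± 0.51, adjusted p = 0.213). Sham values of Sfrp4 were 93.2, 196, 135 and 118 CPM at 1 month and 93, 87.6, 60.7 and 39.6 CPM at 3 months.

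Sfrp5, an antagonist secreted by fat tissue, was at 0.287, 0.474, 0.328 and 0.0713 CPM in eutopic uterus and 0.0183, 5.85, 1.03 and 1.36 CPM in lesions at 3 months. Library 2, which held the highest sum of adipocyte markers (1993 CPM against 26 to 113 CPM in eutopic uterus), was the highest and library 1 the lowest; the part of fat tissue in it was not tested. Sfrp5 rose by 2.84 ± 0.83 (adjusted p = 0.00994), or 2.02 ± 0.52 without lesion libraries 1 and 2, and without library 2 alone it was not called. It was at 0.582, 0.306, 0.216 and 0.151 CPM in eutopic uterus and 0.807, 0.79, 0.461 and 0.383 CPM in lesions at 1 month, and in sham at 0.317, 0.623, 0.233 and 0.425 CPM and, at 3 months, 0.245, 0.182, 0.223 and 0.243 CPM.

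Dkk3, a divergent Dickkopf protein that does not act on the co-receptors like its relatives, rose a little at each time. It was at 107, 83.2, 84.9 and 84.1 CPM in eutopic uterus and 138, 108, 129 and 119 CPM in lesions at 1 month, and at 89.4, 104, 66.8 and 65.2 CPM in eutopic uterus and 86.1, 159, 113 and 149 CPM in lesions at 3 months. The 1-month groups were close but did not overlap, and those at 3 months overlapped. The rises were 0.47 ± 0.17 (adjusted p = 0.0498, 0.0639 without lesion library 2) and 0.66 ± 0.17 (adjusted p = 0.00379). The 1-month call was also lost without lesion library 1, 3 or 4 and without eutopic library 2, 3 or 4. DESeq2 size factors and the fit with no filter on low counts lost it too. The 3-month call was lost with the compared groups alone in the fit, with or without the replicate block. Sham values of Dkk3 were 132, 117, 109 and 105 CPM at 1 month and 89.3, 94.6, 89.2 and 82.7 CPM at 3 months.

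Dkk2, which blocks the co-receptors, was not called at either time with all libraries. At 1 month it was called with eutopic and lesion libraries alone in the fit, with or without the replicate block. It was at 31.6, 28.5, 31.1 and 32.6 CPM in eutopic uterus and 40.8, 42.9, 37.2 and 38.7 CPM in lesions at 1 month, and at 31.1, 32.8, 33.1 and 23.5 CPM in eutopic uterus and 4.63, 12.3, 101.3 and 30.6 CPM in lesions at 3 months. Lesions at 3 months ran from far below eutopic uterus in library 1 to far above it in library 3, with a log2 difference of 0.31 ± 0.50, or 1.11 ± 0.26 without lesion libraries 1 and 2 (adjusted p = 0.00221). Sham values of Dkk2 were 41.9, 42.2, 42.6 and 41.7 CPM at 1 month and 29.96, 38.8, 27.7 and 38.1 CPM at 3 months. Dkk1, the best known blocker of the co-receptors, had 32 counts in all and was too low for the test. It was at 0.0176, 0, 0.0666 and 0.0336 CPM in eutopic uterus and 0, 0, 0.0368 and 0 CPM in lesions at 1 month, at 0.0383, 0, 0.0193 and 0.0178 CPM and 0, 0, 0.0396 and 0 CPM at 3 months, and highest in sham library 4 at 3 months (0.139 CPM). Dkk4 had 1 count. Sfrp2 and Wif1 did not pass, and Sfrp2 was at 4.61 CPM in lesion library 1 at 3 months and at 92.5 to 136 CPM in the other 3.

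With all 24 libraries in the edgeR fit, 0 of the 7 R-spondins and R-spondin receptors were called in lesions against eutopic uterus, with 1 unadjusted p under 0.05 at 1 month and 2 at 3 months. DESeq2 called Lgr5 at 1 month and Rspo3 at 3 months, and limma voom called Lgr5, Rspo1 and Lgr4 at 1 month and Lgr4 and Rspo3 at 3 months. With eutopic and lesion libraries alone in the fit, with or without the replicate block, edgeR called Lgr5, Lgr4 and Rspo3 at 1 month. At 3 months edgeR called Lgr4 and Rspo1 without lesion library 1, Lgr4 and Rspo2 without lesion libraries 1 and 2, Rspo2 and Rspo3 without lesion library 3, and Rspo3 without lesion library 4. Lgr5, the receptor that marks stem cells in several epithelia, was at 2.75, 2.13, 2.58 and 2.69 CPM in eutopic uterus and 6.15, 6.29, 10.1 and 11.2 CPM in lesions at 1 month. All lesions were higher, with a log2 difference of 1.74 ± 0.66 (adjusted p = 0.0641). At 3 months Lgr5 was at 1.97, 4.12, 3.55 and 2.05 CPM in eutopic uterus and 11.1, 4.09, 7.4 and 4.54 CPM in lesions, which just overlapped (1.23 ± 0.65, adjusted p = 0.137). Sham values of Lgr5 were 6.59, 6.01, 1.96 and 3.13 CPM at 1 month and 1.4, 3.59, 1.99 and 24.8 CPM at 3 months.

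Lgr4, the more widely expressed receptor, was at 70.3, 63, 69.2 and 72.3 CPM in eutopic uterus and 52.1, 37.8, 50.1 and 38.4 CPM in lesions at 1 month, and at 76.1, 62.9, 73.1 and 72.8 CPM in eutopic uterus and 151, 35.2, 40.2 and 21.5 CPM in lesions at 3 months. All lesions were lower except library 1 at 3 months, which was the highest library of all. The differences of -0.61 ± 0.37 and -0.18 ± 0.37 were not called; without lesion libraries 1 and 2 at 3 months the value was -1.23 ± 0.22 (adjusted p = 0.000252). Sham values of Lgr4 were 71.6, 64.6, 58.9 and 68.9 CPM at 1 month and 60.5, 72.8, 73.5 and 43.2 CPM at 3 months.

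Rspo3, the R-spondin known from blood vessel and placental development, was at 105, 87.2, 93.8 and 102 CPM in eutopic uterus and 74.1, 74.7, 61.8 and 76.5 CPM in lesions at 1 month, and at 101.1, 98.1, 112 and 72.2 CPM in eutopic uterus and 7.61, 24.3, 62.1 and 93.2 CPM in lesions at 3 months. Lesions were lower at 1 month without overlap, and at 3 months libraries 1 and 2 were far lower. With all 24 libraries in the fit neither difference passed (-0.42 ± 0.41 and -1.03 ± 0.42, adjusted p = 0.492 and 0.0547). The 1-month difference was called with eutopic and lesion libraries alone in the fit, with or without the replicate block. Sham values of Rspo3 were 140.3, 118, 106 and 114 CPM at 1 month and 91.8, 109, 71.8 and 62.2 CPM at 3 months. Rspo1, the R-spondin of ovary determination, was at 23.1, 17.9, 25.7 and 21.3 CPM in eutopic uterus and 39.5, 21.1, 27 and 32.2 CPM in lesions at 1 month, and at 20.8, 20.8, 24.5 and 23.1 CPM in eutopic uterus and 5.21, 69.8, 21.9 and 31.4 CPM in lesions at 3 months. It was highest in lesion library 2 and lowest in lesion library 1 at 3 months, and not called (0.46 ± 0.41 and 0.54 ± 0.41). Sham values of Rspo1 were 18.1, 22, 19.9 and 20.5 CPM at 1 month and 19.96, 21.9, 20.6 and 25.3 CPM at 3 months. Rspo2 was under 1 CPM in 23 of 24 libraries and at 8.89 CPM in lesion library 1 at 3 months. Lgr6 was at 5.43 to 27.5 CPM in eutopic uterus and 2.13 to 34.5 CPM in lesions at 3 months, again with library 1 highest (0.35 ± 0.56), and Rspo4 stayed under 1 CPM in all libraries.

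Inside the cell, Lef1 (ENSMUSG00000027985.15), a transcription factor that acts with beta-catenin and is itself often switched on by Wnt signals, fell in lesions at 3 months. It was at 24.1, 33.4, 35.2 and 38.3 CPM in eutopic uterus and 2.91, 4.32, 10.6 and 11.7 CPM in lesions, without overlap (-2.14 ± 0.37, adjusted p = 0.000184; -1.58 ± 0.35 without lesion libraries 1 and 2). At 1 month, levels of 38.7, 39.2, 52.3 and 44 CPM in eutopic uterus and 30.7, 22.3, 29.2 and 23.2 CPM in lesions did not overlap, and the difference of -0.71 ± 0.35 did not pass (adjusted p = 0.156), while the same 3 analyses as for Fzd6 called it. Sham uterus was at 41.7, 39.2, 46.5 and 37 CPM at 1 month and 38.7, 18.5, 18.4 and 9.89 CPM at 3 months. Lef1 is also known from T cells, whose markers summed to 34.9 to 76.2 CPM in eutopic uterus and to 20.8, 659.9, 378 and 975 CPM in lesions at 3 months. The part of T cells in the Lef1 levels was not tested.

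Axin2, the feedback gene most used as a readout of canonical Wnt activity, was not called. It was at 40.4, 46.7, 57.3 and 44.6 CPM in eutopic uterus and 45.8, 55.1, 46.2 and 56.8 CPM in lesions at 1 month, and at 58.9, 53.8, 50.2 and 39.7 CPM in eutopic uterus and 36.3, 37.6, 44.6 and 36.1 CPM in lesions at 3 months. The groups overlapped at each time, with log2 differences of 0.12 ± 0.20 and -0.37 ± 0.20 (adjusted p = 0.704 and 0.148). Sham values of Axin2 were 53.2, 65.8, 52.4 and 58.6 CPM at 1 month and 49.7, 50.4, 50.7 and 109 CPM at 3 months. Axin1, the constant scaffold of the complex that degrades beta-catenin, was called at each time on small differences. It was at 51.7, 49.1, 52.2 and 51 CPM in eutopic uterus and 60.5, 63, 59.5 and 63 CPM in lesions at 1 month (0.28 ± 0.08, adjusted p = 0.0205; 0.0726 without lesion library 2) and at 57.7, 52.7, 54 and 51.5 CPM in eutopic uterus and 62.5, 58.4, 56 and 75.3 CPM in lesions at 3 months (0.24 ± 0.08, adjusted p = 0.0234). The 1-month call was also lost without lesion library 4, without eutopic library 2 or 4 and with no filter on low counts. The 3-month groups overlapped, and the call of that time was lost in 7 of 15 other analyses, among them those without lesion library 4, without eutopic library 2 and without eutopic library 4 (largest adjusted p 0.296). Sham values of Axin1 were 57, 58.3, 52.1 and 56.7 CPM at 1 month and 55.1, 51.4, 51.1 and 58.2 CPM at 3 months.

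Without lesion libraries 1 and 2, 23 genes were called at 3 months, of which 17 were among the 22 called with all libraries. Fzd4, Lrp6, Wnt10a, Wnt2b and Wnt8b were lost. Dkk2 and Fzd1 were gained among higher genes and Fzd3, Lgr4 and Rspo2 among lower ones. Wnt3, which had too few counts with all libraries, is also among the 23. It passed the filter on low counts there through lesion libraries, at 0.209 CPM (library 4, 1 month) and 0.335 CPM (library 4, 3 months). Its call is thus not independent of its level in lesions and is not counted as support. The fitted value of Rspo2 changed sign, from 2.73 ± 1.28 to -3.98 ± 1.46.

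**Figure D4:**
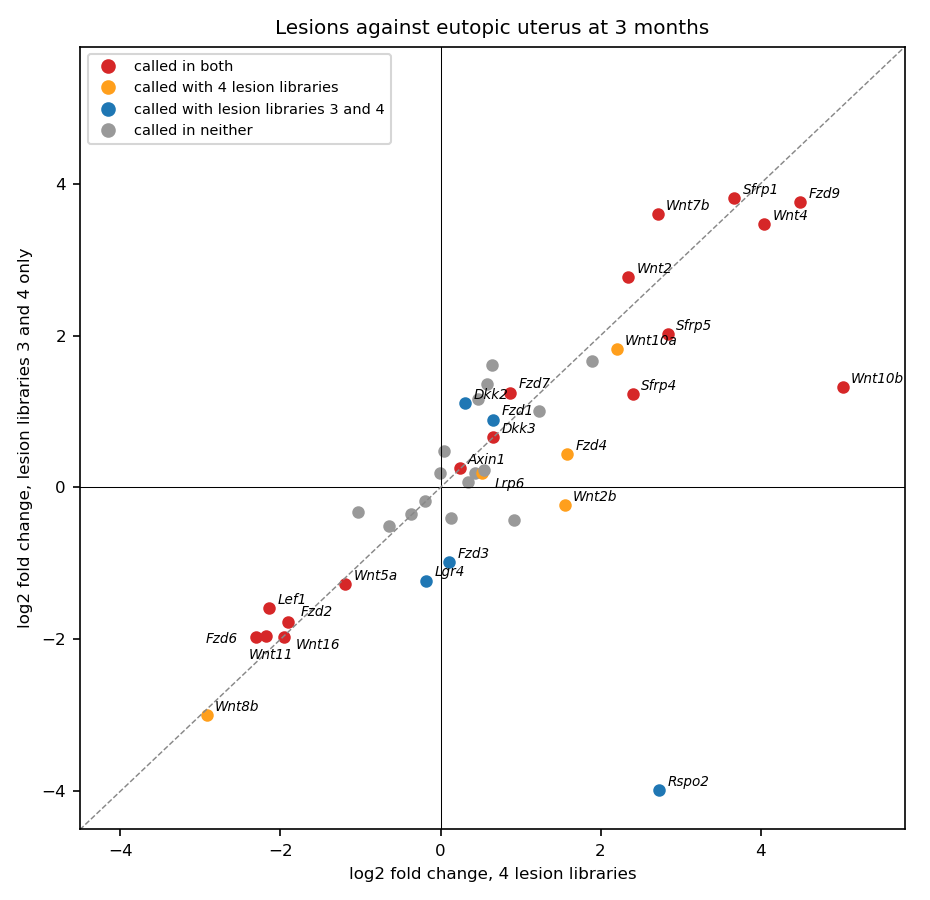
Log2 fold change of the 43 genes in lesions against eutopic uterus at 3 months with all 4 lesion libraries (x axis) and with lesion libraries 3 and 4 only (y axis); the dashed line marks equal values. Wnt4, Wnt2, Sfrp1, Fzd2, Fzd6 and Lef1 lie near the line and were called in both, whereas Wnt10b, Sfrp4, Fzd4, Wnt2b and Rspo2 lie below it.

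Lesions at 3 months were set against those at 1 month to follow them over time. Of the 43 genes 10 were called (23.3%, against 10.9% of all genes), 4 higher (6.52% of all genes) and 6 lower (4.43%). Fzd2, Fzd6, Lef1, Wnt11, Wnt16 and Wnt5a fell, by 1.15 ± 0.13, 1.58 ± 0.31, 1.83 ± 0.37, 1.74 ± 0.45, 1.84 ± 0.53 and 1.10 ± 0.31. For each of the 6 the lesion libraries of the later time all lay below those of the earlier time. Libraries of the 2 times did not overlap for 10 of the 43 genes (9.25% of all genes). Fzd9, Wnt10b, Sfrp4 and Fzd4 rose, by 4.58 ± 1.03, 4.61 ± 0.97, 1.81 ± 0.52 and 1.12 ± 0.35. Without lesion libraries 1 and 2 at 3 months 5 of these stayed called, namely Fzd2, Fzd6, Lef1, Wnt5a and Fzd9, and without lesion library 1 or lesion library 3 at 1 month 5 were called. With only the lesion libraries in the fit 0 were called.

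Whether the lesion-eutopic difference itself changed between the times was tested as an interaction. Fzd2 was the 1 gene called (0.769% of all genes were), its difference going from -0.69 ± 0.13 to -1.90 ± 0.13, a change of -1.21 ± 0.18 (adjusted p = 0.00809). When sham libraries were left out of the fit it was not called, and 5 genes were called without lesion library 3 at 3 months. Wnt10b and Fzd6 came next, with changes of 4.87 ± 1.27 and -1.60 ± 0.42 (adjusted p = 0.0738 and 0.0758).

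Lesions were also set against sham uterus, which shares the lesion libraries with the comparison above. At 1 month 5 genes were called (11.6%, against 15% of all genes, 9.46% higher and 5.53% lower): Wnt2 (2.99 ± 0.41), Wnt4 (3.00 ± 0.58), Wnt7b (3.84 ± 1.02) and Sfrp1 (1.88 ± 0.35) rose and Fzd2 (-0.82 ± 0.13) fell. For all 5 the lesion and sham libraries did not overlap, as for 15 of the 43 genes (30.6% of all genes). At 3 months 25 were called (58.1%, against 41.6% of all genes), 16 higher (23.2% of all genes) and 9 lower (18.4%). Axin2 fell against sham (-0.73 ± 0.20, adjusted p = 0.00718; -0.36 ± 0.14 without sham library 4). Wif1, an antagonist that binds Wnt ligands, fell by 3.96 ± 1.40 (adjusted p = 0.0285), but without sham library 4 its value was 1.13 ± 0.98 and not called. Wnt4 rose by 2.35 ± 0.57, or by 3.82 ± 0.40 without sham library 4. Without sham library 4, 23 were called, with Fzd1, Rspo2, Wnt6, Wif1 and Wnt9a lost and Lgr5, Lrp5 and Wnt7b gained. Without lesion libraries 1 and 2 the calls of Fzd4, Rspo2, Wnt2b, Wnt6, Wif1, Wnt11 and Wnt9a were lost. Dkk2, Fzd3, Fzd8 and Lgr4 were then gained, and so was Wnt3, which passed the filter through lesion libraries. The total was 7 when only the sham and lesion libraries of that time entered the fit.

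Eutopic and sham uterus were compared to see whether the uterus of mice with endometriosis differs. In edgeR 0 of 42 genes were called at 1 month (0.00943% of all genes) and 0 at 3 months (0% of all genes), with 5 and 7 unadjusted p under 0.05. The share of all genes under that unadjusted p was not counted in any comparison. DESeq2 and limma voom called 0 at each time as well. At 1 month the unadjusted p was smallest for Dkk2, at 28.5 to 32.6 CPM in eutopic and 41.7 to 42.6 CPM in sham uterus without overlap, as for 2 of 42 genes (3.48% of all genes; -0.44 ± 0.12, adjusted p = 0.879). Sfrp1 differed by -0.90 ± 0.32 (adjusted p = 0.879). At 3 months Wif1, Wnt4, Fzd10, Wnt7b and Wnt7a had 5 of the 7 small p-values, and each of them was highest in sham library 4. At that time the eutopic and sham libraries were fully apart for 0 of the 42 genes (1.77% of all genes). Without that library the difference for Wnt4 went from -1.69 ± 0.59 to -0.23 ± 0.28 and for Wnt7b from -1.78 ± 0.70 to 0.01 ± 0.38. The change of the eutopic-sham difference between the times was called for 0 genes (0.00943% of all genes; 5 unadjusted p under 0.05, and 0 by DESeq2 and limma voom).

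Sham library 4 at 3 months carried a set of Wnt genes at levels not seen in the other uterine libraries. Of the 43 genes 8 were over 2 times the next highest sham library of that time: Wnt4, Wnt7a, Wnt7b, Wnt16, Fzd10, Lgr5, Wif1 and Axin2. Wif1 was at 0.193, 0.182 and 0.431 CPM in the other 3 libraries and at 36 CPM in this one, and Fzd10 at 4.84, 4.44, 5.63 and 55 CPM. Wnt11, Wnt10a and Rspo2 were under 0.5 times the next lowest. Its epithelial marker sum of 2258 CPM was the highest of the 16 uterine libraries; the part of epithelial content in these levels was not tested.

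**Figure D5:**
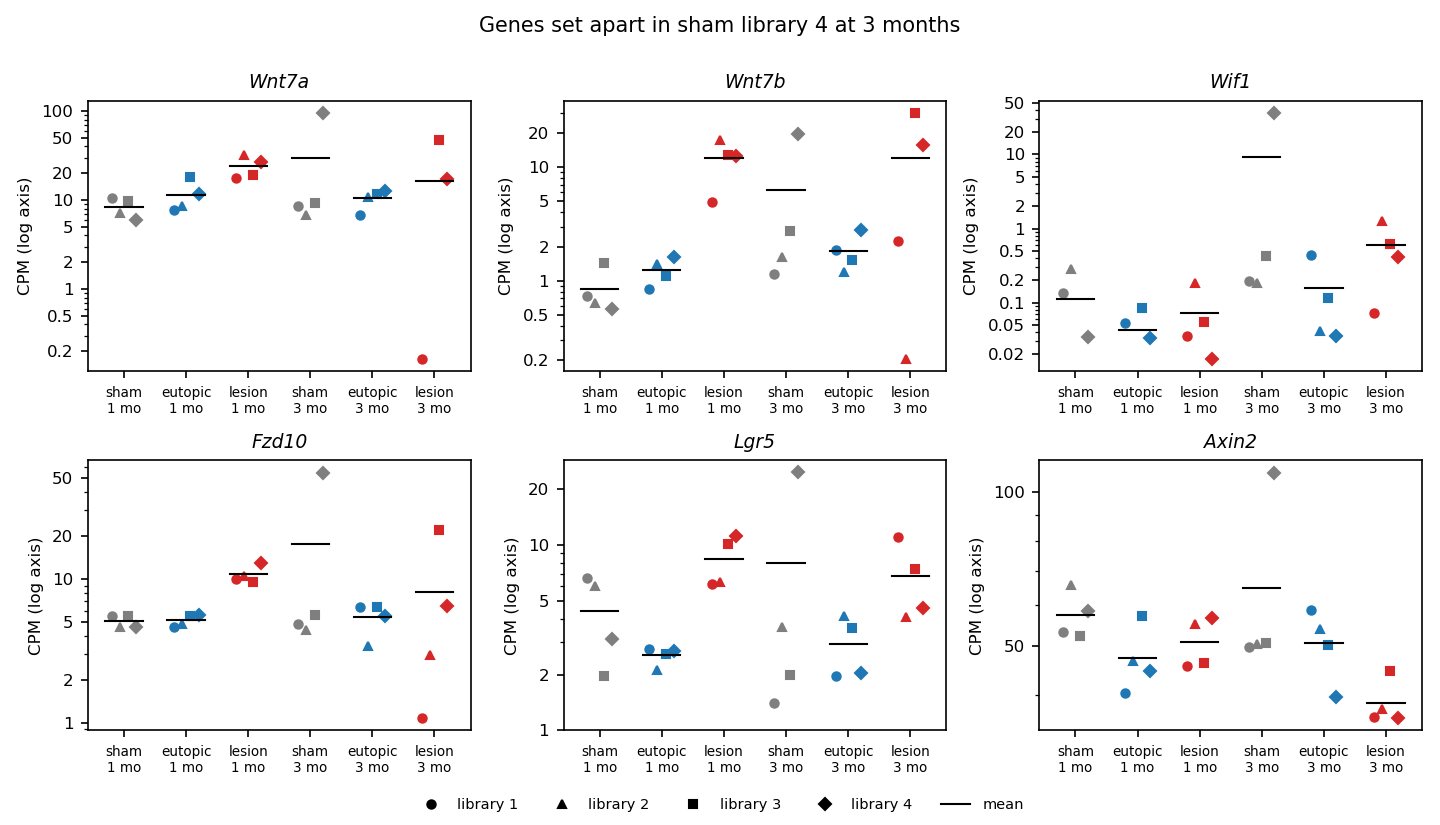
Level (CPM, log axis) in each library of 6 genes that stood apart in sham library 4 at 3 months (grey diamond), by group and time; lines are group means, and values of 0 (Wnt7a in lesion library 2 at 3 months, Wif1 in sham library 3 and eutopic library 2 at 1 month) are not drawn. In that library Wnt7a is at 94.5 CPM and Axin2 at 109 CPM, above all other libraries.

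Over time, sham uterus at 3 months against 1 month gave 0 called genes in edgeR (0% of all genes). Of the 42 members tested, 19 had an unadjusted p under 0.05, again without a count over all genes. Wnt7b had the lowest adjusted p (0.289). DESeq2 called Wnt7b, limma voom called 5 genes, and edgeR called 5 without sham library 1 at 3 months (Wif1 and Wnt7b higher, Fzd1, Fzd7 and Lef1 lower). Eutopic uterus at 3 months against 1 month gave 0 called genes (0.00943% of all genes) and 0 unadjusted p under 0.05, and 0 in DESeq2 and limma voom.

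Other genes of the pathway were counted from 5 lists, also chosen with earlier results of these data known. Of 30 intracellular and co-receptor partners, 2 were higher and 2 lower in lesions at 1 month, and 3 were higher and 12 lower at 3 months, 13.3% and 50% of the list beside 20.7% and 40.5% of all genes. Tcf7, a TCF factor that is also a T cell gene, rose by 1.37 ± 0.24 and 1.07 ± 0.24, and Tle1, a co-repressor of TCF factors, fell by 0.65 ± 0.18 and 1.36 ± 0.19, the former lost without lesion library 2 (adjusted p = 0.0565). T cell markers summed to 221 to 648 CPM in lesions and 43.7 to 54.5 CPM in eutopic uterus at 1 month; their part in the Tcf7 values was not tested. Amer1, a membrane adaptor of the destruction complex, and Ptk7, a polarity co-receptor, fell at 3 months by 0.90 ± 0.12 and 1.29 ± 0.22. Ctnnb1, beta-catenin itself and named here as the centre of the pathway, was at 668 to 827 CPM in lesions and 610.3 to 755 CPM in eutopic uterus at 1 month and was not called (0.10 ± 0.12 and 0.01 ± 0.12).

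Of 15 tested genes for ligand export and for inhibitors outside the rule, 3 were higher and 0 lower at 1 month, and 3 were higher and 5 lower at 3 months (20% and 53.3%, beside 20.7% and 40.5% of all genes). Notum, the enzyme that removes the lipid from Wnt proteins, rose by 2.02 ± 0.62 and 1.86 ± 0.62, and Frzb, a further Frizzled-related antagonist, rose by 1.05 ± 0.33 at 1 month. Without lesion library 2 neither was called at 1 month (adjusted p = 0.0982 and 0.0628). At 3 months Notum was at 2.78, 0.297, 6.84 and 4.94 CPM in lesions and 0.578 to 1.35 CPM in eutopic uterus, so that lesion library 2 lay below eutopic uterus. Porcn, the enzyme that adds the lipid, fell by 1.52 ± 0.26 at 3 months, and Apcdd1, a membrane inhibitor, by 1.43 ± 0.31. Of 11 planar polarity genes, Scrib was called at 1 month (0.31 ± 0.11; adjusted p = 0.109 without lesion library 2), and 2 were higher and 4 lower at 3 months, among them Vangl1 (-0.96 ± 0.17) and Vangl2 (-1.29 ± 0.28), core polarity proteins. These were 9.09% and 54.5% of that list. Of 13 feedback and target genes, 2 were higher and 1 lower at 1 month, and 3 were higher and 3 lower at 3 months (23.1% and 46.2%). Nkd2, a feedback inhibitor, rose by 1.57 ± 0.43 and 1.24 ± 0.42, and Myc, a growth gene that Wnt signals can switch on, fell by 0.98 ± 0.17 and 1.57 ± 0.17. At 3 months Nkd2 was at 10.8, 35.9, 136 and 91.2 CPM in lesions and 24.3 to 35.5 CPM in eutopic uterus, so that lesion library 1 lay below eutopic uterus.

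Of 12 uterine factors tied to Wnt genes, 1 was higher and 1 lower at 1 month, and 2 were higher and 8 lower at 3 months (16.7% and 83.3%, beside 20.7% and 40.5% of all genes). Foxa2, the gland factor, fell by 2.79 ± 0.68 and 3.37 ± 0.70. Sox17, Msx1, Gata2 and Hand2, transcription factors of uterine epithelium or stroma, fell at 3 months by 2.75 ± 0.43, 3.41 ± 0.59, 2.63 ± 0.47 and 2.83 ± 0.51. Without lesion libraries 1 and 2 their values were -2.12 ± 0.41, -2.58 ± 0.32, -1.85 ± 0.26 and -2.17 ± 0.27, all called. Bmp2, a growth factor upstream of Wnt4 in decidualization, rose by 1.25 ± 0.35, with lesion library 1 at 41.2 CPM and the other lesions at 8.83 to 11.6 CPM against 6.17 to 9.33 CPM in eutopic uterus, and was not called without lesion libraries 1 and 2 (0.44 ± 0.20). Barx1, a factor of stomach mesenchyme known to induce Sfrp genes, had 0 counts in the 4 eutopic libraries at 1 month and was at 7.12, 4.42, 2.74 and 8.85 CPM in lesions, and at 0, 23.6, 0.119 and 3.43 CPM in lesions at 3 months. Without lesion library 2 at 1 month the higher and lower counts of the 5 lists, in the order given, were 1 and 1, 0 and 0, 0 and 0, 1 and 1, and 1 and 1. Without lesion libraries 1 and 2 at 3 months they were 4 and 14, 5 and 3, 1 and 3, 3 and 4, and 1 and 8.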

How the data were processed

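The authors deposited raw gene counts of 24 total-RNA libraries. The submitters' processing notes name bcl2fastq 1.9.0, STAR 2.7.9a, edgeR and build mm39 without their roles. How reads were counted, with which annotation and whether by strand, is not given in the sources used here. Genes that share reads with copies or antisense partners are therefore uncertain. Library totals of 45100000 to 59400000 counts set the counting precision, and no pair of libraries was identical.

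CPM were computed here with TMM factors over the 24 libraries. Comparisons used edgeR 4.0.16 (R 4.3.3; filterByExpr, quasi-likelihood test, Benjamini-Hochberg adjustment over all genes tested, threshold 0.05). Those with lesions were fitted on all 24 libraries (22249 genes) and those between uteri on the 16 uterine libraries (21208 genes). The SE is the log2 fold change divided by the square root of F. The steps were tested on simulated data. Alternatives were DESeq2 1.42.0, its size factors, limma 3.58.1 voom with sample weights, no filter, other sets of libraries in the fit, a replicate block, and leaving out libraries. Levels in every library are given for members called in lesions against eutopic uterus and for a panel of uterine Wnt genes, and at most 4 called genes per pathway list and direction are named. The members and lists were chosen with earlier results of these data known.

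Same-numbered libraries were checked for deviations that went together, with a limit of 0.1 on the correlation of every pair. Only eutopic uterus at 3 months against 1 month met it (0.105 to 0.202), and there the block also gave 0 called Wnt genes. These uteri were taken at different times after surgery, so neither the correlation nor the limit shows that a number marks an animal. The sequences are from RefSeq promoters of GRCm38.p6.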

Additional observations from a re-analysis of the deposited data

Results flagged for a closer look

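For each tested Wnt gene and each group of 4 libraries, the highest or lowest library was set against the other 3. In 23 of 258 such groups 1 library stood apart by more than the 95% limit of Dixon's test for 4 values, a test that chance passes in about 1 of 20 groups. Sham library 4 at 3 months accounts for 7 of them, with the highest level of its group for Wnt4 (38.7 CPM), Wnt7a (94.5 CPM), Wnt7b (19.8 CPM), Fzd10 (55.0 CPM), Lgr5 (24.8 CPM), Wif1 (36.0 CPM) and Axin2 (109 CPM). Lesion library 1 at 3 months accounts for 6, with Wnt4 at 126 CPM, Wnt6 at 14.7 CPM, Wnt10b at 72.1 CPM, Lgr4 at 151 CPM, Rspo2 at 8.89 CPM and Sfrp4 at 1354 CPM. In sham library 1 at 3 months Fzd4 (59.5 CPM), Fzd7 (81.6 CPM) and Wnt6 (3.75 CPM) were above the other 3 libraries. In eutopic library 1 at 1 month Dkk3 (107 CPM) and Lrp6 (177 CPM) stood above the rest, as did Lgr6 (27.5 CPM) in eutopic library 1 at 3 months. Rspo4 was high (0.396 CPM) and Wnt10a low (0.218 CPM) in lesion library 3 at 3 months, Rspo3 was low in lesion library 3 at 1 month (61.8 CPM), and Wnt5a was high in sham library 2 at 1 month (306 CPM).

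For Fzd2 the difference between lesions and eutopic uterus itself changed from 1 month to 3 months, by -1.21 on the log2 scale in edgeR's interaction test, with every lesion library below every eutopic library at both times.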

How the results depend on the processing

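Replicate numbers were shared by all groups. Deviations of same-numbered lesion and eutopic libraries correlated at 0.0735 to 0.191 at 1 month and 0.00343 to 0.337 at 3 months, all positive. Of 4 pairs, 3 and 2 were over 0.1. Of 4 lesion libraries, 4 and 3 correlated best with the eutopic library of their own number. With sham libraries these were 2 and 1. Whether lesion and eutopic libraries are pairs from the same animals cannot be told, and the main fits used no pairing. With other groups left out of the fit, and then with the replicate block added, the called Wnt genes went from 9 to 21 and 21 (lesions against eutopic uterus, 1 month), from 22 to 9 and 7 (3 months), from 5 to 15 and 15 (lesions against sham, 1 month), from 25 to 7 and 0 (3 months), from 10 to 0 and 0 (lesions over time) and from 1 to 0 and 0 (change of the difference). The main fits used the same spread per gene for all their groups. These fits held fewer libraries and took the spread from the compared groups alone. The mean correlation of a library with the others of its group was 0.849 to 0.926 for lesions at 3 months. For lesions at 1 month it was 0.963 to 0.977. The part of unequal spread in these counts was not tested. With limma voom the counts were 23, 15 and 6 for lesions against eutopic uterus at 1 month, lesions against sham at 1 month and lesions over time, and 5 for sham over time. DESeq2 gave 2 for the change of the difference and 1 for sham over time. Without lesion library 2 at 1 month 4 were called against eutopic uterus and 2 in the change of the difference, and without lesion libraries 1 and 2 at 3 months 5 were called over time. Leaving out 1 library at a time gave 4 to 8 (lesions against eutopic uterus, 1 month), 5 to 13 (lesions over time), 1 to 5 (change) and 0 to 5 (sham over time).

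The direction in lesions against eutopic uterus was checked for Wnt genes called at the time concerned and for tested genes of the uterine panel. Among these it turned for Wnt2b, which was called at 3 months, and for 6 that were not called at the time concerned. Genes outside the panel were not checked at a time when they were not called. At 1 month Wnt5a ranged from -0.038 to 0.23 and Wnt6 from -0.12 to 0.22 with 1 library left out, and Wnt6 was -0.044 by limma voom. At 3 months the same ranges were -0.91 to 0.68 for Dkk2, -1.13 to 0.10 for Lgr4, -0.18 to 0.89 for Rspo1, -0.22 to 1.20 for Wnt6 and -0.83 to 1.06 for Wnt7a. With the replicate block Dkk2 was -0.50 and Wnt7a -2.27, by limma voom Wnt6 was -0.33 and Wnt7a -0.12, and without lesion libraries 1 and 2 Wnt6 was -0.44 and Wnt2b -0.24. Wnt8b and Wnt10a stayed under 1 CPM in all libraries and rest on few counts, and neither gene lengths nor cell types can be read from these counts.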
